A study of Mus musculus with 9 samples.

Results

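Sst, Npy, Penk, Tac1, Cck, Pvalb, Calb1, Calb2, Sox14 and Nos1 are 10 genes used to tell classes of GABAergic neurons apart, in the thalamus and elsewhere in the brain. They were taken by gene symbol from the deposited count tables, which together hold 20707 genes. All 10 were found in the tables of both light times, and all 10 passed the filter on low counts in every comparison. The tissue was dLGN, short for dorsal lateral geniculate nucleus, where retinal axons meet the thalamic neurons that project to visual cortex. It was dissected from brain slices of wild-type C57BL/6J mice of both sexes, and its RNA was sequenced as ribosome-depleted total RNA. The mice, aged P27 in the labels, had lived in the dark from postnatal day 20 until day 27 in every group, so that the controls had been in the dark as well. By the labels, the groups differ in the light that followed, which lasted 0, 1 or 8 h, with 3 libraries per group and, per the labels, 3 mice per light time.

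The dLGN holds excitatory relay neurons and a small population of local GABAergic interneurons. Its neighbours, the ventral geniculate nucleus (vLGN), the intergeniculate leaflet (IGL) and the thalamic reticular nucleus, consist largely of GABAergic cells. Neuropeptides are cut from longer precursors, stored in dense-core vesicles and released by sustained firing, and several of their genes are known to respond to neuronal activity in other brain regions. Parvalbumin, calbindin and calretinin are EF-hand proteins that buffer calcium in neurons and serve as markers of neuron classes. In bulk tissue, fewer cells of a type and less RNA per cell cannot be told apart, and none of the 10 genes is specific to dLGN interneurons.

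Gene counts summed to 5728242 in the shallowest library, 0 h replicate 1, and to 22586133 in the deepest, 8 h replicate 1. Levels are given as CPM, the reads of a gene per 1 M counted reads, and the floor of 3 reads corresponds to 0.524 CPM in the first and 0.133 CPM in the second. The libraries differed in the levels of cell type markers, and the part of these differences in the levels of the 10 genes was not tested. Markers of relay neurons summed over 8 genes to 3970 to 4780 CPM in the 9 libraries. That sum is mostly Rora and Prkcd, whereas Gbx2 ran from 6.62 to 40.8 CPM and Cdh9 from 0.679 to 10.2 CPM. The summed GABA markers Gad1, Gad2 and Slc32a1 (3 of 3 measured) ran from 154 to 444 CPM at 0 h, from 197 to 331 CPM at 1 h and from 320 to 496 CPM at 8 h, with 0 h replicate 2 lowest of all. Slc32a1 alone, the vesicle transporter of GABA, ran from 27.5 CPM in 0 h replicate 2 to 95.8 CPM in 0 h replicate 1. Markers of the thalamic reticular nucleus (Ecel1, Spp1 and Isl1, 3 of 3 measured) summed to 16.5, 1.45 and 10.8 CPM at 0 h, to 6.46, 9.06 and 4.39 CPM at 1 h and to 18.3, 12.7 and 10.9 CPM at 8 h. Neurod6, which cortical and hippocampal excitatory neurons express, stood at 0.339, 18.2 and 0.728 CPM at 0 h, 13.8, 0.353 and 0.228 CPM at 1 h and 3.62, 0.43 and 0.286 CPM at 8 h, so that 0 h replicate 2 and 1 h replicate 1 were far above the rest. Xist, at 218 to 520 CPM, and 4 summed Y-linked genes, at 51.1 to 96.4 CPM, were both present in 7 of the 9 libraries, although the labels count the 3 mice of a light time as 3 independent samples. The other 2 held only one of them in quantity, with 139 CPM of the Y-linked genes beside 0.331 CPM of Xist in 0 h replicate 3 and 858 CPM of Xist beside 0.0537 CPM in 8 h replicate 2. Whether a library holds tissue of more than 1 mouse was not tested, so the p-values measure the spread between libraries.

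Somatostatin, encoded by Sst (chr16:23889581-23890844, minus strand, GRCm38), is an inhibitory peptide of GABAergic neurons. Its level was 8.14, 2.58 and 3.11 CPM in the dark, 6.91, 4.24 and 1.71 CPM after 1 h of light and 14.3, 10.2 and 5.32 CPM after 8 h. Both the highest and the second highest library were at 8 h, but the third 8 h library lay below 0 h replicate 1, so the groups overlapped. Mean Sst was 4.61 CPM ± 3.07 in the dark and 9.95 CPM ± 4.5 after 8 h (SD, n = 3). The fitted difference was 1.32 ± 0.42 on the log2 scale (SE, 2.5-fold, 95% interval 0.38 to 2.26), with an adjusted p of 0.277 over all genes in edgeR's quasi-likelihood test. At 1 h it was -0.03 ± 0.52 (SE, adjusted p = 1.00). Sst did not pass the test at either time, and the authors' deposited table lists it at 2.29-fold with an FDR of 0.160 at 8 h.

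Cholecystokinin, encoded by Cck (chr9:121489824-121495694, minus strand), is a peptide that many excitatory neurons as well as interneurons make. It was by far the steadiest of the peptide genes, with 106, 115 and 125 CPM at 0 h, 120, 138 and 120 CPM at 1 h and 148, 136 and 132 CPM at 8 h. Every 8 h library lay above every 0 h library. The difference at 8 h was small, 0.25 ± 0.07 (log2 ± SE, 1.19-fold, 95% interval 0.09 to 0.42), with an adjusted p of 0.221. The authors' deposited table gives 1.2-fold with an FDR of 0.228.

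Neuropeptide Y, from Npy (chr6:49822729-49829507, plus strand), is a peptide of cortical interneurons and of IGL neurons that project to the circadian clock in the hypothalamus. It was rare here, at 3.22, 0.429 and 2.98 CPM at 0 h, 2.6, 1.35 and 1.42 CPM at 1 h and 3.04, 2.52 and 2.46 CPM at 8 h. The low value in 0 h replicate 2 rests on 8 reads, and apart from it the 0 h and 8 h libraries shared 1 range. The 8 h libraries differed among themselves by no more than counting alone gives, with a coefficient of variation of 11.8% against 14.1%. The fitted difference was -0.24 ± 0.59 at 1 h and 0.43 ± 0.51 at 8 h (log2 ± SE, adjusted p = 1.00 and 0.842).

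Proenkephalin, from Penk (chr4:4133530-4138965, minus strand), is the precursor of the enkephalins, which act on opioid receptors. Its level was 9.33, 1.5 and 12.8 CPM at 0 h, 7.14, 8.94 and 3.70 CPM at 1 h and 3.76, 7.41 and 8.41 CPM at 8 h. The 0 h group held both the lowest and the highest of the 9 libraries. The fitted differences were -0.22 ± 0.58 at 1 h and -0.24 ± 0.57 at 8 h (log2 ± SE, adjusted p = 1.00 and 0.930). An annotated gene on the opposite strand, A830012C17Rik, shares 233 exonic bases with Penk, and since the strand setting of the counting is not given, reads there cannot be assigned.

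Tac1 (chr6:7554773-7562978, plus strand) encodes the precursor of substance P. It was the rarest of the 10 genes, at 0.339, 0.966 and 1.72 CPM at 0 h, 0.793, 0.647 and 0.513 CPM at 1 h and 1.27, 0.859 and 0.629 CPM at 8 h. These levels rest on 2 to 28 reads per library, and the 2 reads of 0 h replicate 1 lie under the floor of 3. The 1 h libraries spread by 21.5%, where counting alone gives 33.9%. At 0 h the spread was 68.6% against 44.5% from counting. The fitted differences were -0.83 ± 0.46 at 1 h and -0.28 ± 0.44 at 8 h (log2 ± SE, adjusted p = 1.00 and 0.888).

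**Figure D1:**
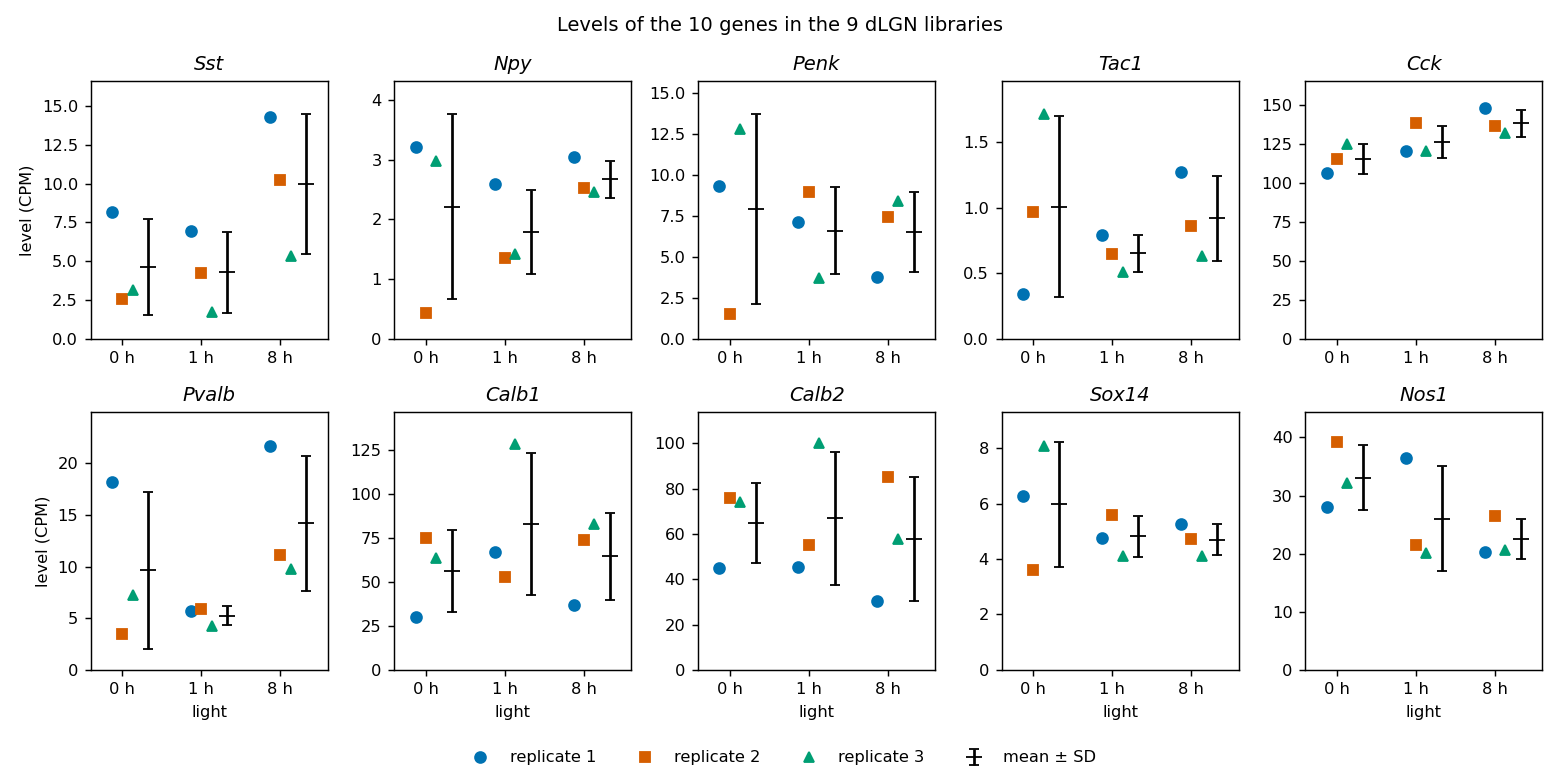
Level of each of the 10 genes (vertical axis, CPM, each panel on its own scale from 0) against hours of light (horizontal axis), with 1 point per library, coloured by replicate number, and a bar for the mean ± SD of 3 libraries. Cck lies within 106 to 148 CPM throughout, Sst and Pvalb have their highest library at 8 h (14.3 and 21.7 CPM), and Nos1 lies at 20.3 to 26.4 CPM at 8 h, below all 3 libraries at 0 h.

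The promoters were searched for motifs of factors that neuronal activity is known to engage. The cAMP response element TGACGTCA, a site for CREB-family factors that was first described in the somatostatin gene, was searched for on both strands together with its variant TGACGCA, in windows from 250 bases before to 50 bases after each RefSeq start (GRCm38.p6). Windows were found for 7 of the 10 genes, 8 in all, and not for Penk, Calb1 and Calb2. One of these motifs was found in 4 windows, printed here on the strand of the gene with the motif in capitals, and TGACGCA reads TGCGTCA there because it lies on the other strand. For Sst (chr16:23890874-23890903), Tac1 (chr6:7554851-7554880) and Nos1 (chr5:117866696-117866725) the stretch around the motif is given, and for Cck (chr9:121495695-121495944) all 250 bases before the start.
Sst: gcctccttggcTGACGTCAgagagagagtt
Tac1: ttccctaaaatTGCGTCAtttcgaacacaa
Nos1: taaaccagccaTGCGTCAggcttggcttca
Cck: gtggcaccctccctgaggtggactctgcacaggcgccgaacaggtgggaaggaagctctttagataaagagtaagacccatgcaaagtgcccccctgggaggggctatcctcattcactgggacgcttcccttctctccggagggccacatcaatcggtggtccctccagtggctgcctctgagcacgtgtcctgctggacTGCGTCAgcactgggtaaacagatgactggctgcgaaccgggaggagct

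The palindrome begins 48 bases before the Sst start, and the variant begins 49 bases before the start in Cck, 132 in Nos1 and 199 in Tac1. Among 32851 RefSeq windows of the same length, 1.79% held TGACGTCA and 2.12% held TGACGCA. The shorter TGACG, which is contained in both, stood in 20.8% of all windows and in 4 of these 8. The E-box CACGTG, which bHLH factors bind, stood in 7.15% of all windows and in those of Cck and Tac1. The AP-1 motif TGANTCA, found in 7.81% of all windows, was in none of the 8, which says only that these letters are not in these windows. The Nos1 window belongs to a start 85.9 kb inside the deposited gene. Of the genes with either cAMP motif, Sst and Cck had fitted differences above 0 at 8 h and Tac1 and Nos1 below 0, and none of the 4 passed the test.

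Parvalbumin, from Pvalb (chr15:78191117-78206351, minus strand), marks fast-spiking interneurons and most neurons of the thalamic reticular nucleus. Its level was 18.2, 3.43 and 7.28 CPM at 0 h, 5.66, 5.88 and 4.22 CPM at 1 h and 21.7, 11.1 and 9.78 CPM at 8 h. The 3 libraries at 1 h lay close together, and all 3 at 8 h were above them, whereas the 0 h libraries ranged from below the 1 h group to near the top. Between 8 h and 1 h the fitted difference was 1.45 ± 0.46 (log2 ± SE, 2.74-fold, 95% interval 0.46 to 2.44), with an adjusted p of 0.284. The reticular nucleus markers Ecel1, Spp1 and Isl1 summed to 4.39 to 9.06 CPM at 1 h and 10.9 to 18.3 CPM at 8 h. Singly, Ecel1 did not overlap between these times, whereas Spp1 and Isl1 did. None of them passed the test (adjusted p = 0.697, 0.466 and 0.628), and their part in the Pvalb result was not tested. Against 0 h the Pvalb difference was -0.74 ± 0.47 at 1 h and 0.77 ± 0.48 at 8 h (log2 ± SE, adjusted p = 1.00 and 0.639). The first was -0.03 without 0 h replicate 1 and -1.19 without 0 h replicate 2. The second was 1.44 without 0 h replicate 1, 0.31 without 0 h replicate 2 and 0.29 without 8 h replicate 1. With the level of the GABA markers as a covariate, chosen after seeing the data, the difference between 8 h and 1 h was 0.70 (adjusted p = 0.526). That level itself was 197 to 331 CPM at 1 h and 320 to 496 CPM at 8 h, so this fit cannot tell it apart from light time.

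Calbindin, from Calb1 (chr4:15881264-15906709, plus strand), and calretinin, from Calb2 (chr8:110142538-110168206, minus strand), buffer calcium in many neurons, excitatory ones included. Calb1 stood at 29.9, 75.0 and 63.3 CPM at 0 h, 66.7, 52.4 and 128 CPM at 1 h and 36.5, 73.6 and 83.0 CPM at 8 h. Calb2 stood at 44.8, 76.0 and 74.0 CPM at 0 h, 45.3, 55.2 and 100 CPM at 1 h and 30.4, 85.2 and 57.8 CPM at 8 h. Both were highest in 1 h replicate 3, and both had their 2 lowest libraries in 0 h replicate 1 and 8 h replicate 1, which were the 2 highest for Pvalb. Over the 9 libraries the highest exceeded the lowest 4.3 times for Calb1 and 3.3 times for Calb2. Counting error is a small part of this, since Calb1 at 1 h had a coefficient of variation of 48.9% against 3.3% from counting. At 8 h the fitted differences were 0.14 ± 0.32 for Calb1 and -0.21 ± 0.30 for Calb2 (log2 ± SE, adjusted p = 0.927 and 0.875). At 1 h they were 0.52 ± 0.34 and 0.03 ± 0.27 (adjusted p = 1.00 for both).

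Sox14 (chr9:99874106-99876170, minus strand, 1 exon) encodes a transcription factor that marks the midbrain-derived lineage of thalamic interneurons and also IGL and vLGN neurons. It was detected in every library, at 6.28, 3.60 and 8.07 CPM at 0 h, 4.76, 5.59 and 4.10 CPM at 1 h and 5.26, 4.72 and 4.12 CPM at 8 h. After light its libraries differed by little more than counting error, with coefficients of variation of 15.5% at 1 h and 12.1% at 8 h against 12.7% and 10.6% from counting. The 0 h group spread more, at 37.7%, and again held both extremes. The fitted differences were -0.30 ± 0.28 at 1 h and -0.33 ± 0.27 at 8 h (log2 ± SE, adjusted p = 1.00 and 0.735).

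Nos1 (chr5:117780979-117958840, plus strand, 33 exons) encodes the neuronal enzyme that makes nitric oxide, which signals through cGMP. It was the gene of the 10 that came nearest to the threshold. Its level was 28.0, 39.2 and 32.2 CPM at 0 h, 36.5, 21.5 and 20.1 CPM at 1 h and 20.3, 26.4 and 20.7 CPM at 8 h. Every 8 h library lay below every 0 h library, and mean Nos1 was 33.1 CPM ± 5.64 in the dark and 22.5 CPM ± 3.39 after 8 h (SD, n = 3). The fitted difference was -0.59 ± 0.13 at 8 h (log2 ± SE, 0.664-fold, 95% interval -0.89 to -0.29), with place 182 among 15330 genes by p and an adjusted p of 0.0992. The authors' deposited table lists Nos1 at 0.671-fold with an FDR of 0.0121, and DESeq2 gave -0.58 with an adjusted p of 0.00482 on the same counts. At 1 h the difference was -0.40 ± 0.21 (log2 ± SE, adjusted p = 1.00).

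The 2 libraries with the most Neurod6, 0 h replicate 2 and 1 h replicate 1, were also the 2 highest for Nos1. Without 0 h replicate 2 the difference at 8 h against 0 h was -0.45 ± 0.13 (SE, adjusted p = 0.211), smaller than with it. Without both libraries the difference at 1 h against 0 h was -0.56 ± 0.14 (SE, adjusted p = 0.647), larger than the -0.40 ± 0.21 with them, and it was -0.70 ± 0.14 (adjusted p = 0.734) without 1 h replicate 1 alone. The difference between 8 h and 1 h was 0.11 ± 0.13 (SE) without both, against -0.18 ± 0.20 with all 9. Of the cortical and hippocampal list, 8 of 8 genes were measured, and their summed level was 818 to 1110 CPM at 0 h, 773 to 1020 CPM at 1 h and 879 to 960 CPM at 8 h. That sum is mostly Slc17a7, Cux2 and Prox1, whereas Emx1, a marker of the cortical excitatory lineage, was at 0 in 3 libraries. Like Neurod6, the genes Emx1, Neurod2, Tbr1, Lamp5 and Slc17a7 had their 2 highest libraries in 0 h replicate 2 and 1 h replicate 1. In these, Neurod2 was at 16.5 and 15.1 CPM, with at most 5.42 CPM elsewhere. Emx1 was at 0.912 and 0.68 CPM, with at most 0.227 CPM elsewhere. Cux2 and Prox1 were not highest in these libraries. An annotated antisense gene, Gm26995, shares 268 exonic bases with Nos1.

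None of the 10 genes passed the test in any comparison, at an adjusted p under 0.05 over all genes tested. That threshold was passed by 0.0132% of 15164 genes at 1 h against 0 h, by 0.587% of 15330 genes at 8 h against 0 h and by 0.603% of 15586 genes at 8 h against 1 h, and 0 of 10 is near these shares. By direction, 0.0132%, 0.528% and 0.507% of genes were called higher and 0%, 0.0587% and 0.0962% lower. At an unadjusted p under 0.05, 0 of the 10 genes were called at 1 h, where 3.2% of all genes were (1.9% higher, 1.31% lower). Sst and Cck (higher) and Nos1 (lower) were called at 8 h against 0 h, 3 of 10 where 10.2% of all genes were called (5.9% higher, 4.32% lower), and at 8 h against 1 h Sst and Pvalb higher, 2 of 10 where 8.9% were (4.81% higher, 4.09% lower). Groups that did not overlap were seen for 0 of the 10 genes at 1 h (8.72% of all genes, 4.6% higher and 4.12% lower), for Cck and Nos1 at 8 h against 0 h (16.1%, 9.09% higher and 7.01% lower) and for Pvalb at 8 h against 1 h (15.3%, 8.53% higher and 6.77% lower). The median fitted difference of the 10 genes was -0.23 at 1 h, -0.03 at 8 h and 0.06 between 8 h and 1 h on the log2 scale, beside 0, 0 and -0.01 over all genes tested. The comparisons with 0 h share their 3 control libraries, 0 h replicate 2 among them.

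**Figure D2:**
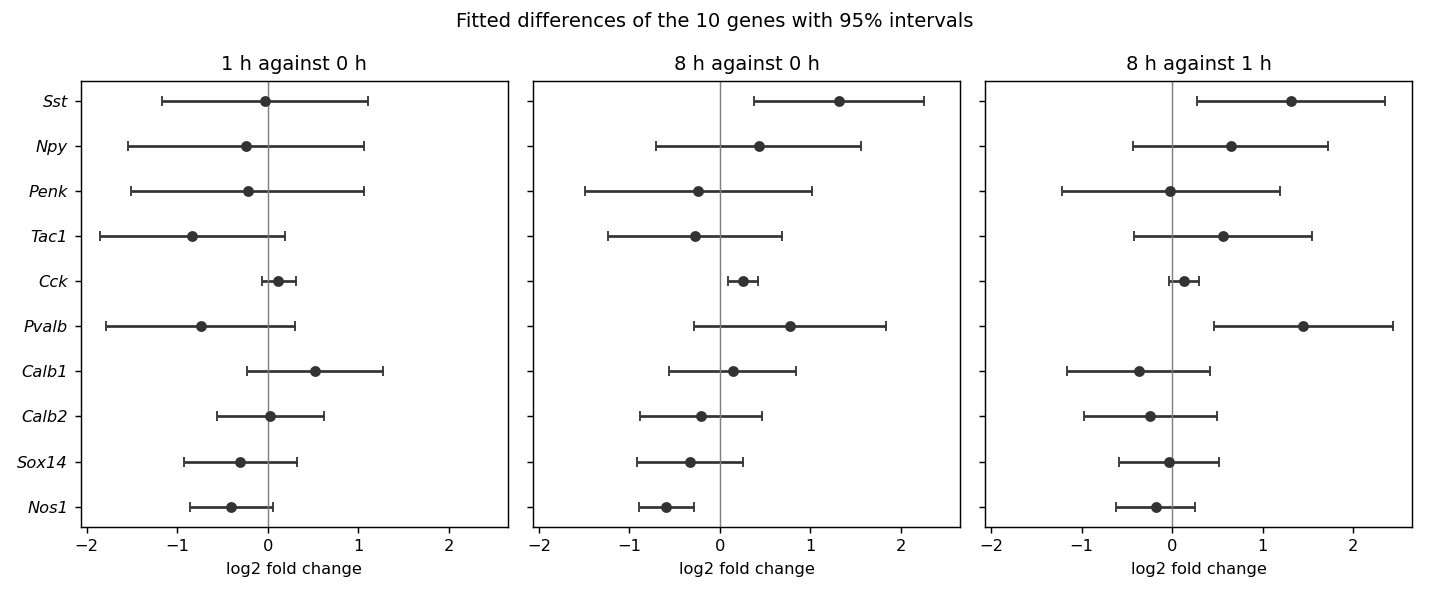
Fitted log2 fold change (horizontal axis) of each gene with its 95% interval, in 1 panel per comparison and with a line at 0. Most intervals span 0, and those of Sst (0.38 to 2.26), Cck (0.09 to 0.42) and Nos1 (-0.89 to -0.29) at 8 h against 0 h, and of Sst (0.27 to 2.35) and Pvalb (0.46 to 2.44) at 8 h against 1 h, do not.

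The width of these intervals sets what could have been seen. For Cck the interval at 1 h was -0.06 to 0.31, so that changes beyond 0.31 in either direction are outside it. For Npy it was -1.54 to 1.07 and for Penk -1.51 to 1.07, which leaves changes of either direction within the interval. Sst at 8 h against 1 h was at 1.31 ± 0.48 (log2 ± SE, adjusted p = 0.383), from the same 8 h libraries as its difference from 0 h.

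Most of the 10 genes varied more between replicates than other genes did. The SD of log2 levels within a light time was 0.14 at the median of 15487 genes. Sst, Npy, Penk, Tac1, Pvalb, Calb1 and Calb2, 7 of the 10, were more variable than 96.9% or more of all genes, with Penk highest at 0.975. These shares are over genes of all levels, and low counts add to this SD. The coefficient of variation was 21.5% for Tac1 at 1 h and 11.8% for Npy at 8 h, against 33.9% and 14.1% from counting. For Penk at 0 h it was 73.6% against 14.0%. Sox14 and Nos1 stood at 91.6% and 89.5%, and Cck alone was below the middle, at 34.8%. Over all 9 libraries the highest exceeded the lowest 8.54 times for Penk, 8.38 times for Sst, 7.51 times for Npy and 6.32 times for Pvalb, against 1.4 times for Cck and 1.95 times for Nos1.

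One dark library set the low end for several genes. Library 0 h replicate 2 was the lowest of the 9 for Npy, Penk, Pvalb and Sox14 and the second lowest for Sst and Cck, and it was the highest for Nos1 and the third highest for Calb1, Calb2 and Tac1. The same library had the least Slc32a1 and the least of the reticular nucleus markers, and the most Neurod6. Its part in the spread of the genes was not tested. Scaled to Slc32a1, the SD over the 9 libraries on the log2 scale went from 0.934 to 0.531 for Npy, from 0.953 to 0.545 for Penk, from 0.907 to 0.612 for Pvalb and from 0.994 to 0.826 for Sst. For Calb1 it went the other way, from 0.631 to 1.09, for Calb2 from 0.541 to 0.952 and for Nos1 from 0.378 to 0.765. Scaled to the sum of Gad1, Gad2 and Slc32a1, Sst, Npy, Penk and Pvalb likewise had a smaller SD and the other 6 a larger one, and Sox14 changed little by either scaling, from 0.356 to 0.337 and 0.378.

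**Figure D3:**
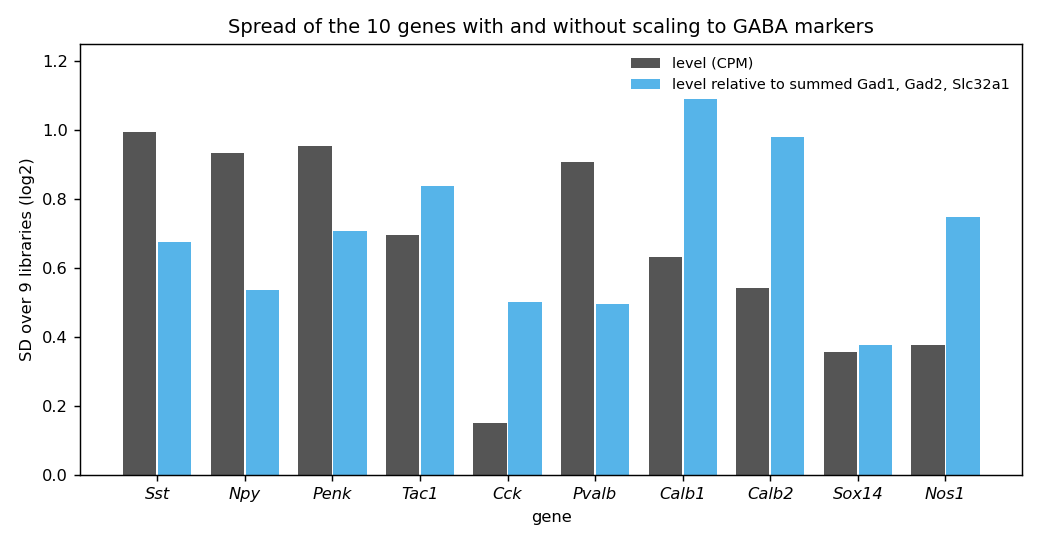
SD of the log2 level over the 9 libraries (vertical axis) for each gene, as measured (grey bars) and relative to the summed level of Gad1, Gad2 and Slc32a1 (blue bars). The SD is smaller after scaling for Sst (0.994 to 0.675), Npy, Penk and Pvalb, and larger for Calb1 (0.631 to 1.09), Calb2, Nos1, Cck, Tac1 and, slightly, Sox14.

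The genes most like each of the variable members were found by the root mean square difference of centred log2 levels over the 9 libraries, among 15585 genes, where 0 is an identical profile. Pvalb was nearest to Cckar, a receptor for cholecystokinin (0.248, at a mean of only 0.857 CPM), and to Gad1, the GABA-synthesising enzyme (0.343), against its own SD of 0.805. Npy was nearest to Gad2, the second such enzyme (0.259, own SD 0.615), and to the T-type calcium channel gene Cacna1i (0.284). Sst was nearest to Isl1, a transcription factor (0.319, own SD 0.843), whose mean level was only 1.08 CPM, and to Ubash3b (0.373). Penk was nearest to the synaptotagmin gene Syt6 (0.318, own SD 0.797) and to the orphan receptor gene Gpr101 (0.368).

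The calcium buffers had other neighbours. Calb1 was nearest to the galanin receptor gene Galr1 (0.209, own SD 0.589), itself at a mean of only 0.642 CPM, and to Sphkap (0.243). Calb2 was nearest to Nppc, which encodes C-type natriuretic peptide (0.204, own SD 0.505), and to Plcxd2 (0.237). Gbx2, a thalamic transcription factor on the list of relay markers, had the same 2 lowest and 2 highest libraries as Calb1, with 6.62, 17.5 and 13.3 CPM at 0 h, 18.9, 15.3 and 40.8 CPM at 1 h and 11.5, 29.6 and 32.8 CPM at 8 h. On the same list, Rora, Slc17a6 and Tcf7l2 were also lowest in 0 h replicate 1 and highest in 1 h replicate 3. The rest peaked elsewhere, Lef1 in 0 h replicate 1 (129 CPM) and Prkcd in 8 h replicate 1 (1650 CPM). Cdh9 peaked in 1 h replicate 1 (10.2 CPM) and Zic1 in 1 h replicate 2 (558 CPM). Sox14 was nearest to Tmem200c (0.111, own SD 0.307) and Zfhx4 (0.164), and Tac1 to Gm12522 (0.190, own SD 0.399) and Agmo (0.216). Among pairs of the 8 genes whose highest library was at least 2 times the lowest, the nearest were Calb1 with Calb2 (0.359), Tac1 with Sox14 (0.412) and Sst with Pvalb (0.457). For Tac1 with Sox14 the difference exceeds the own SD of each gene, so neither is closer to the other than to a flat profile. These are descriptions of the same 9 libraries, which share their depth and composition, and carry no test.

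Other genes peaked in the library where Sst and Pvalb did. In 8 h replicate 1, Sst was at 14.3 CPM and Pvalb at 21.7 CPM, and Gad1 was at 254 CPM, Isl1 at 3.58 CPM and Spp1 at 5.39 CPM, each the highest of the 9 libraries. The other genes of the same marker lists did not peak there. Gad2 was at 168 CPM, Slc32a1 at 74.0 CPM and Ecel1 at 9.29 CPM, below the 171, 95.8 and 11.9 CPM of 0 h replicate 1. Trh, a thyrotropin-releasing hormone gene, was at 8.48, 0.161 and 0.596 CPM at 0 h, 2.15, 2.94 and 0.171 CPM at 1 h and 13.3, 4.89 and 4.23 CPM at 8 h. Six3, a transcription factor of forebrain GABAergic neurons, was at 14.2, 0.483 and 1.52 CPM at 0 h, 3.06, 4.71 and 0.741 CPM at 1 h and 16.4, 9.40 and 7.61 CPM at 8 h. In both, as in Sst, 8 h replicate 1 was highest, and 0 h replicate 2 and 1 h replicate 3 were the 2 lowest. The vLGN, IGL and midbrain list, without Sox14, had a summed level of 28.0 to 46.2 CPM at 0 h, 30.9 to 38.7 CPM at 1 h and 30.4 to 33.7 CPM at 8 h, with 9 of 9 genes measured. With the GABA marker level as a covariate, the Sst difference at 8 h was 0.89 against 0 h (adjusted p = 0.364) and 0.72 against 1 h (adjusted p = 0.828). That level itself differed in part with light time, so these fits cannot fully tell it apart from light.

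**Figure D4:**
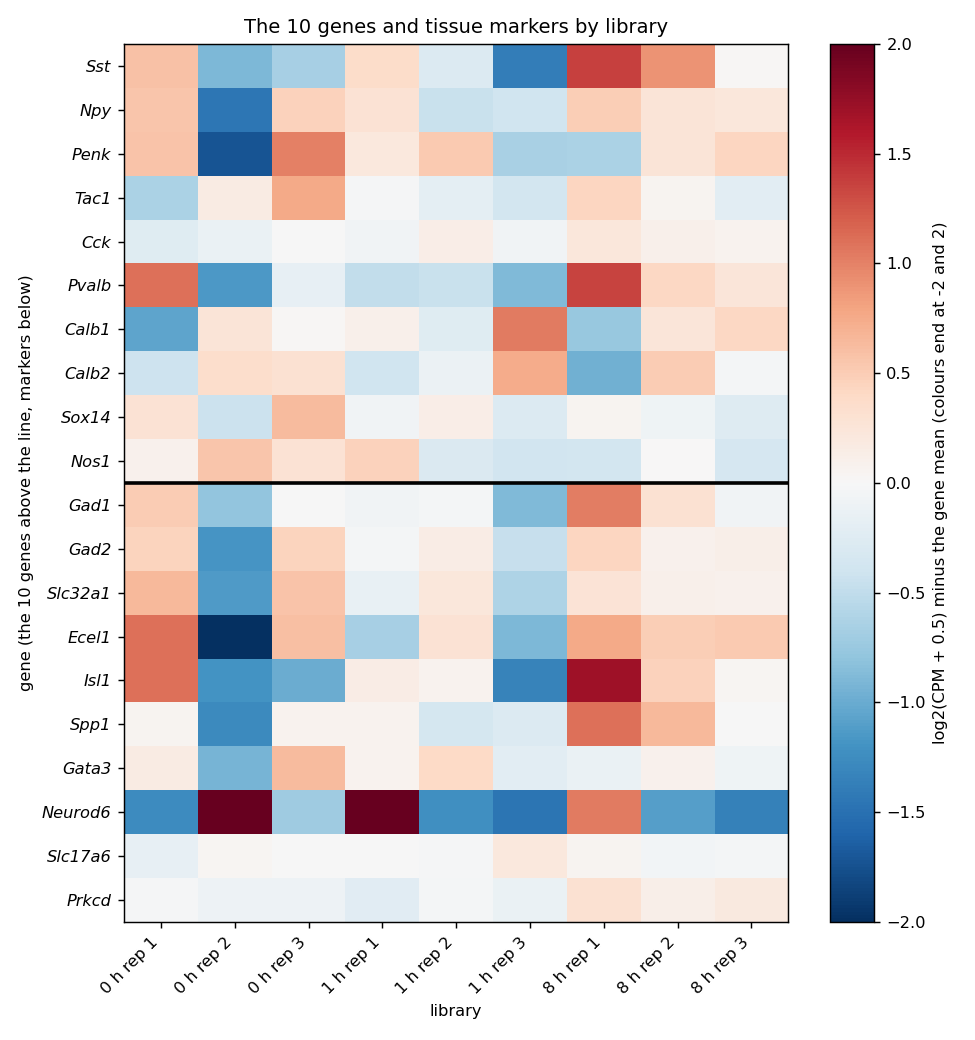
Level of the 10 genes (above the line) and of tissue markers (below it) in each of the 9 libraries (columns), coloured by log2(CPM + 0.5) minus the mean of the gene, with red for higher and blue for lower and the colours ending at -2 and 2. Library 0 h replicate 2 is blue for Npy, Penk, Pvalb, Gad2, Slc32a1 and Ecel1 and red for Neurod6, and 8 h replicate 1 is red for Sst, Pvalb, Gad1, Isl1 and Spp1 and blue for Calb1 and Calb2.

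Levels between genes were compared as CPM per kb of the deposited exonic length. In the dark, Cck stood first at 119 CPM per kb ± 9.83 (SD, n = 3) and Calb2 second at 45.4 ± 12.2, and their libraries did not overlap. Calb1 followed at 19.6 CPM per kb ± 8.18, below every Calb2 library, and its range of 10.4 to 26.2 overlapped that of Pvalb, which reached 15.7. Pvalb (8.32 CPM per kb), Sst (7.7), Penk (4.51), Npy (4.04), Nos1 (3.02) and Sox14 (2.9) came next, and each overlapped its neighbours in this order. Tac1 was last at 0.625 CPM per kb ± 0.429, with no library as high as the lowest of Sox14. At 8 h the means were in much the same order, except that Sst, at 16.6 CPM per kb ± 7.52, stood before Pvalb, at 12.3 ± 5.65, Npy, at 4.89, before Penk, at 3.73, and Sox14, at 2.28, before Nos1, at 2.04. Each of these 3 pairs overlapped.

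**Figure D5:**
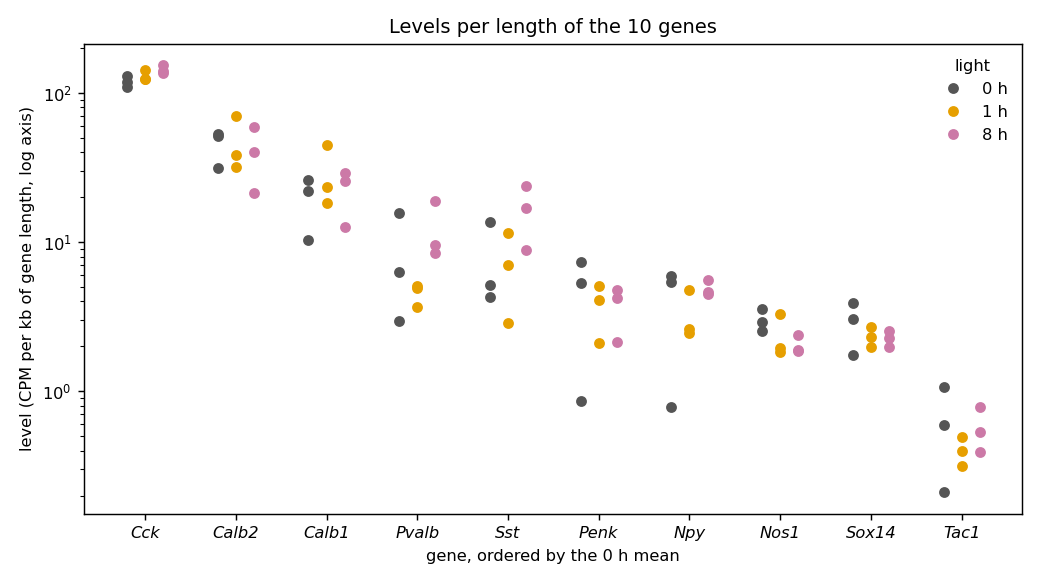
Level per length of the 10 genes (vertical axis, CPM per kb of gene length, log axis), ordered by the mean at 0 h, with 1 point per library coloured by hours of light. Cck lies above all other genes at 109 to 153 CPM per kb, Tac1 has the lowest means with libraries at 0.21 to 1.07, and the 6 genes from Pvalb to Sox14 overlap with their neighbours.

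Genes that act with the 10 were counted on fixed lists. Of 19 genes for peptide processing and dense-core vesicles, 0 passed the test in any of the 3 comparisons, with a median difference of 0.02 at 8 h against 0 h beside 0 over all genes. Chgb, a granin of dense-core vesicles, had a difference of 0.30 ± 0.07 (log2 ± SE, adjusted p = 0.107) at 8 h, and Cadps2, which primes these vesicles for release, -0.28 ± 0.15 (adjusted p = 0.572). Of the receptors for the peptides, 12 were tested at 1 h and 13 at 8 h, and 0 passed. Cckar was at 1.36 ± 0.90 at 8 h (log2 ± SE, adjusted p = 0.661) and Npy2r at -1.05 ± 0.84 (adjusted p = 0.731), the latter with its 2 highest libraries in those with the most Neurod6, at 8.80 and 6.23 CPM. Cckar passed the filter on low counts only with the 8 h libraries, where its mean was highest (1.5 CPM, against 0.912 CPM at 0 h). Its direction therefore carries no weight.

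Among other neuropeptide genes, 1 of 12 tested passed at 8 h. This was Vgf, the precursor of several peptides and known to respond to neuronal activity and growth factors, with 173, 180 and 212 CPM at 0 h, 204, 214 and 212 CPM at 1 h and 291, 284 and 281 CPM at 8 h. All 3 libraries at 8 h were above the other 6. Vgf rose by 0.59 ± 0.08 against 0 h (log2 ± SE, adjusted p = 0.00797) and by 0.44 ± 0.07 against 1 h (adjusted p = 0.0188, 1 of 14 tested). The median of the list was 0.42 at 8 h against 0 h, beside 0 over all genes tested. Trh had 1.92 ± 0.92 (adjusted p = 0.517) and Cartpt 1.12 ± 0.88 (adjusted p = 0.727). Cartpt and Gal passed the filter on low counts only with the 8 h libraries, where their means were highest (0.91 and 0.581 CPM). Their direction, which enters the median, therefore carries no weight. At 1 h, 0 of 10 tested passed and the median was 0.04.

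Of 21 other EF-hand calcium sensors and buffers, 1 passed at 8 h. This was Necab3, a neuronal calcium-binding protein, with 33.8, 33.8 and 35.9 CPM at 0 h, 34.0, 30.7 and 35.2 CPM at 1 h and 51.9, 45.2 and 47.1 CPM at 8 h. It rose by 0.47 ± 0.08 against 0 h (log2 ± SE, adjusted p = 0.0274) and by 0.53 ± 0.08 against 1 h (adjusted p = 0.0141), and its 6 libraries before 8 h lay within 30.7 to 35.9 CPM. Rcvrn and Kcnip2, the 2 others with the largest differences at 8 h, had 0.51 ± 0.54 and -0.51 ± 0.39 (log2 ± SE, adjusted p = 0.812 and 0.716). The median of this list was -0.01 at 8 h.

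Nitric oxide and cGMP signalling, the pathway of Nos1, had 0 genes past the test of 18 at 1 h and 17 at 8 h. Its median at 8 h was -0.07, beside 0 over all genes tested. Pde1a, a calmodulin-dependent phosphodiesterase, had -0.44 ± 0.14 (log2 ± SE, adjusted p = 0.264) and Nostrin, which traffics endothelial nitric oxide synthase, 0.51 ± 0.26 (adjusted p = 0.551). Of the list of GABA neuron identity, 0 of 18 passed at 1 h, 0 of 21 at 8 h and 0 of 20 between 8 h and 1 h. Six3 was at 1.55 ± 0.80 and Gad1 at 0.52 ± 0.31 at 8 h against 0 h (log2 ± SE, adjusted p = 0.552 and 0.620), and the median over the list was -0.01. Of the marker lists for tissue composition, the relay list had the single call, Prkcd, which rose by 0.34 ± 0.07 between 1 h and 8 h (log2 ± SE, adjusted p = 0.0409).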

How the data were processed

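RNA of 9 dLGN libraries was analysed from the raw counts per gene that the authors deposited. The authors' deposited tables also hold a density signal per library and a mean CPM, which were not used here, the gene length, used for levels per kb, and a fold change (ratio) with its p-value and FDR, which are quoted only as theirs. The submitters' processing notes name the build GRCm38 (mm10), edgeR 3.14.0 and BWA. The counting tool and its strand option are not given in the sources used. The lowest summed count of a listed gene was 4, and 25 symbols stored as dates were restored.

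Counts were tested with edgeR 4.0.16 (glmQLFit, glmQLFTest) in R 4.3.3, with TMM scaling, filterByExpr and Benjamini-Hochberg adjustment at 0.05, two-sided. The comparisons with 0 h used their own 6 libraries, and 8 h against 1 h used all 9. Levels are CPM with TMM-scaled library sizes, and log2 levels use CPM + 0.5, with 1 exception. The SDs over the 9 libraries with and without scaling to GABA markers use CPM without the 0.5. They therefore differ from the own SDs given beside the most alike genes. Intervals of fold changes use the total degrees of freedom of the test, which are the residual ones plus prior ones estimated over all genes. Floors of 3 counts cover counting error only. The p-values measure the spread between libraries.

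The 10 genes and the gene lists were chosen with earlier results of these data known. Named were all 10 genes; of each list, those past the threshold and the 2 with the largest difference at 8 h; and the 2 genes most like each member whose highest library was at least 2 times its lowest. Alternatives were RLE size factors, no filter, DESeq2 1.42.0, limma-voom (limma 3.58.1), another setting of glmQLFit (legacy FALSE), a block for the replicate number and each library left out. The libraries with the most Neurod6 left out, and the summed level of Gad1, Gad2 and Slc32a1 as a covariate, were added after seeing the data. Some marker genes of the fixed lists are not reported here, and list sums and counts leave them out.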

Additional observations from a re-analysis of the deposited data

How the results depend on the processing

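None of the 10 genes was called at 1 h against 0 h or at 8 h against 1 h in any alternative. DESeq2 called 1 at 8 h against 0 h (Nos1, -0.58, adjusted p = 0.00482), and the replicate block called 2 (Nos1, -0.57, adjusted p = 0.0145, and Sst, 1.20, adjusted p = 0.0313). Deviations of same-numbered libraries had correlations of -0.231 to 0.216, and those of differently numbered libraries -0.255 to 0.316. Correlations over all genes cannot decide whether the numbers pair the samples, and the block calls assume that they do. Without 1 library at a time, Nos1 at 8 h lay between -0.72 and -0.45 (adjusted p = 0.0949 to 0.294), Sst between 0.93 and 1.82 and Pvalb at 8 h against 1 h between 1.0 and 1.65, at 8 h against 0 h between 0.29 and 1.44 and at 1 h between -1.19 and -0.03, and no member was called.

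Over all genes, 2 were called at 1 h, and 14 by DESeq2, 1 by limma-voom, 1 with legacy FALSE, 0 with the replicate block, 0 without the 2 libraries with the most Neurod6, 6 with the GABA marker covariate and 0 to 9 (9 without 1 h replicate 3, 0 without any other) with 1 library left out. At 8 h against 0 h, 90 were called, and 269 by DESeq2, 158 with the replicate block and 33 (without 8 h replicate 2; 49 without 0 h replicate 1) to 84 with 1 library left out. At 8 h against 1 h, 94 were called, and 196 by DESeq2, 28 without the 2 libraries with the most Neurod6, 43 with the GABA marker covariate and 20 (without 1 h replicate 1) to 127 with 1 library left out, among them 31 without 1 h replicate 3 and 38, 26 and 45 without 8 h replicates 1, 2 and 3. The cause was not tested.

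Of 440 alternative values of the 10 genes, 396 kept their direction and side of the threshold, 3 passed it and 41 changed sign, none of the latter with an adjusted p under 0.05. At 1 h the sign changed with limma-voom for Npy (0.30), Penk (0.37) and Calb2 (-0.03), with legacy FALSE for Sst (0.03), with the replicate block for Calb2 (0.00) and with the GABA covariate for Sst (0.07), Npy (0.24), Penk (0.31) and Calb2 (-0.06). With limma-voom it also changed for Penk at 8 h against 0 h (0.37). At 8 h against 1 h it changed without the Neurod6 libraries for Penk (0.03) and Nos1 (0.11), and with the GABA covariate for Npy (-0.07), Calb1 (0.12) and Calb2 (0.11).

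Leaving out 1 library at a time, other differences spanned 0. At 1 h these were Sst (-0.49 to 0.53), Npy (-0.85 to 0.31), Penk (-0.81 to 0.55), Calb2 (-0.39 to 0.23) and Sox14 (-0.61 to 0.05). Between 8 h and 0 h they were Npy (-0.20 to 1.03), Penk (-0.83 to 0.58), Tac1 (-0.59 to 0.25), Calb1 (-0.11 to 0.43), Calb2 (-0.59 to 0.11) and Sox14 (-0.65 to 0.03). Between 8 h and 1 h they were Penk (-0.34 to 0.32), Calb1 (-0.62 to 0.11), Calb2 (-0.62 to 0.18), Sox14 (-0.15 to 0.10) and Nos1 (-0.35 to 0.11).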
